A study of Caenorhabditis elegans with 6 samples.

Results

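RNA interference (RNAi) and Argonaute genes of Caenorhabditis elegans were examined as 57 of the 18217 genes named on an Affymetrix C. elegans array, read by 77 of its 22625 probe sets. A probe set was a member when each gene symbol given to it by the platform annotation belonged to the rde, mut, alg, wago, hrde, nrde, eri, ergo, csr, prg, drh, rrf, sid, dcr, ppw or sago families, or was ego-1. Of these, 76 read 1 gene and 1 was shared by ppw-1 and sago-2, whose signals cannot be told apart. The names used no measured value.

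RNAi starts when the nuclease Dicer cuts double-stranded RNA (dsRNA) into short guides, which Argonaute proteins carry to matching transcripts. In worms the signal is then amplified: RNA-dependent RNA polymerases, working with the mutator proteins, copy the target into secondary small RNAs, and these load a worm-specific set of secondary Argonautes that silence RNA in the cytoplasm or genes in the nucleus. Many of these factors act in the germline, where they hold down transposons and carry silencing to the progeny, while SID proteins move dsRNA between cells.

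The 6 arrays held RNA from whole wild-type worms of the N2 Bristol strain, 3 labelled control and 3 labelled as exposed to hydrogen sulfide (H2S), each labelled as L4 larvae. The donor was GYY4137, a compound that releases H2S slowly, at 100 uM for 48 h in liquid and a further 12 h on plates. That text stands with all 6 arrays, so the handling of the controls is not given in the sources used here, and nothing says that replicates were separate cultures. Values are GCRMA signals on the log2 scale, and 4 was used as the floor of reliable signal.

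The labelled source was checked against tissue markers. Above the floor on 3 or more arrays were 18 of 19 germline, 8 of 10 intestine, 9 of 10 body wall muscle, 9 of 10 hypodermis and 5 of 10 neuron genes. Yolk and eggshell genes, which adults express, were also high, with a mean over 5 yolk genes between 11.6 and 11.8 on every array, while the labels give a larval stage; the sources used here leave the age of the collected worms unclear. GYY4137 replicate 3 stood apart: across probe sets it correlated with the other arrays at 0.940 to 0.965, against 0.979 to 0.993 among those 5. Where leaving it out turned a member's difference or moved it by over 1.5 times, the value without it is also given.

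Of the 77 member probe sets, 46 were above the floor on 3 or more of the 6 arrays and were tested. They read 42 genes, counting both ppw-1 and sago-2, and 20 of them can bind related transcripts. The other 31 were too dim: 25 were never above 4, and 6 were above it on 1 or 2 arrays. For 15 genes no probe set was tested. These were sid-1, sid-3, alg-1, alg-3, alg-4, nrde-3, wago-5, wago-10, wago-11, eri-3, eri-5, eri-6, eri-7, rrf-2 and hrde-4. The main microRNA Argonaute gene alg-1 was read on 3 probe sets with means between 2.55 and 3.66, and only 1 array, at 4.03, passed the floor.

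After GYY4137, 1 of the 46 tested member probe sets fell, that of rde-11, and none rose (limma, Benjamini-Hochberg adjusted p under 0.05 over 8053 tested probe sets). Over all tested probe sets 0.41% fell and 1.09% rose. At an unadjusted p under 0.05 the members numbered 8, or 17.4%, against 17.7% of all tested probe sets, so the members did not pass more often than the array as a whole. The GYY4137 mean lay below the control mean for 37 of 46 members, or 80.4%, against 57.1% of all tested probe sets. Their median difference was -0.25, with -0.04 over all tested probe sets. Every GYY4137 array lay below every control array for 12 members (26.1%, against 15.6% of all tested), and above it for 2 (4.35%, against 13.4%). With no filter on low values, 55 of all 77 members lay below control (71.4%, against 39.6% of 22548 probe sets). Their median was -0.11, and the median over those 22548 probe sets was 0.01. No test was made of the members as a list.

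**Figure D1:**
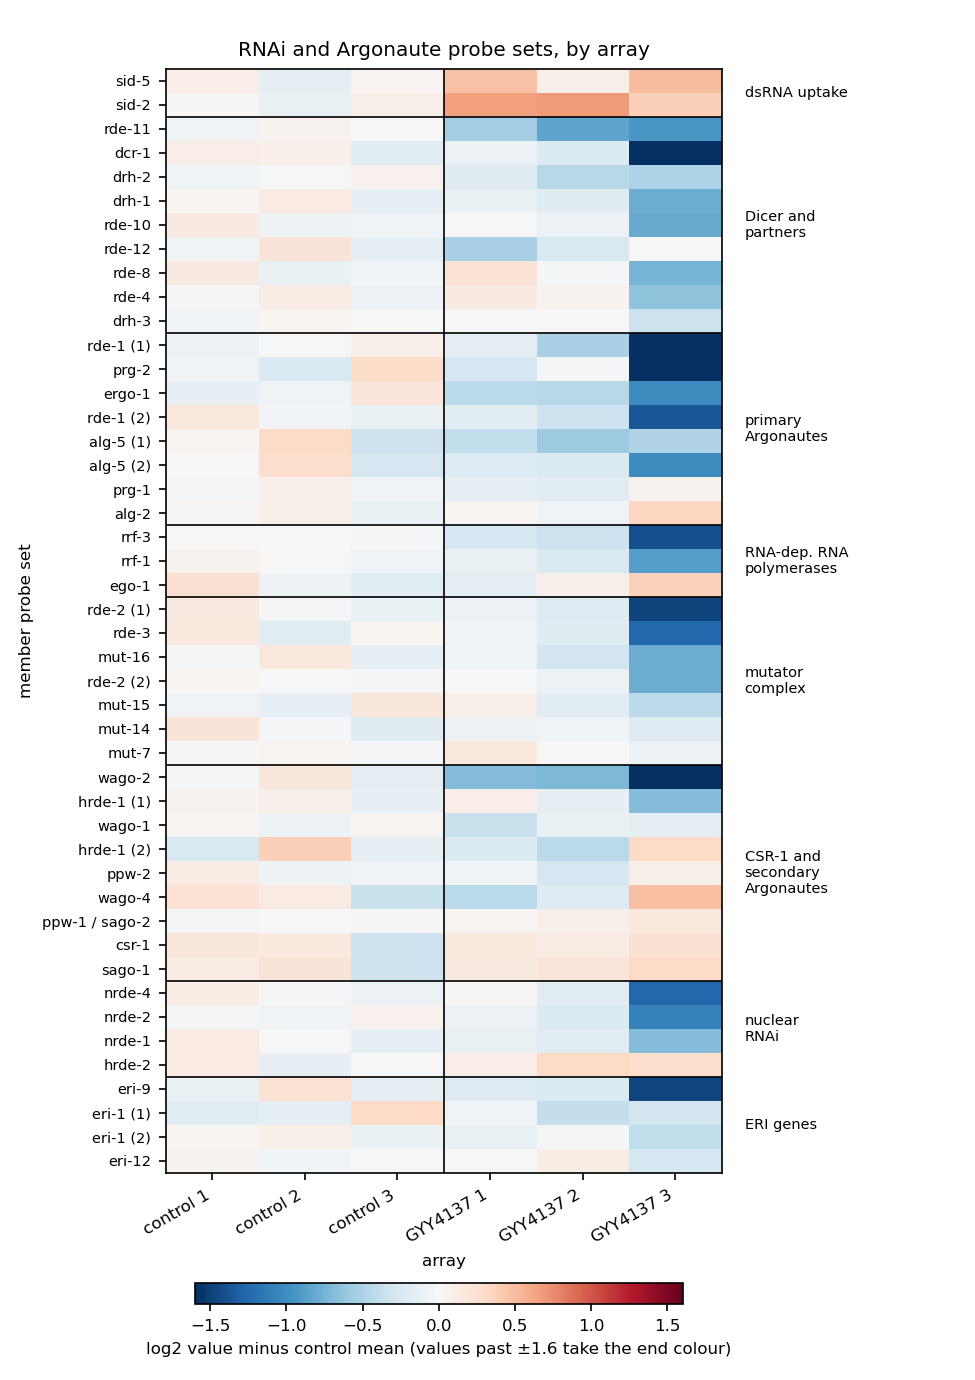
Each row is 1 tested member probe set and each column 1 array; the colour gives the log2 value minus the mean of the 3 control arrays, blue for lower and red for higher. Numbers in brackets tell apart probe sets of 1 gene, and horizontal lines part the role groups. The darkest blue lies in the column of GYY4137 replicate 3, on which 30 of the 46 members were lowest, while rde-11 and wago-2 were lower and sid-2 higher on all 3 GYY4137 arrays.

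Many of the low values lay on 1 array. GYY4137 replicate 3 held the lowest of the 6 values for 30 of the 46 members, or 65.2%, against 38.1% of all tested probe sets. It held the highest for 7 members (15.2%, against 28.4%). On this array 9 members (19.6%, against 5.46% of all tested) lay more than 1 below the mean of the other GYY4137 arrays on the log2 scale. Without it, 36 of 46 members still lay below control (78.3%, against 54.8%), and the median was -0.15 rather than -0.25, with -0.02 over all tested probe sets. The difference between 3' and 5' probe sets of actin, Gapdh and ubiquitin, a reading of RNA length, was 1.64, 0.79 and 4.62 on this array. The other 5 arrays spanned 1.43 to 1.96, 0.88 to 1.16 and 4.55 to 4.73.

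Markers of some cell types also lay off their control level in the same comparison, and their part in the members' values was not tested. None passed in any of these lists with all arrays. Of all tested probe sets, 57.1% lay below control and 17.7% had an unadjusted p under 0.05. Over 18 germline genes, 16 lay below control and 2 (11.1%) had such a p. Their mean was 6.84 to 6.90 on the controls and 6.52 to 6.84 on the GYY4137 arrays. Over 17 oocyte and eggshell genes, 16 lay below control, 6 (35.3%) at an unadjusted p under 0.05 in either direction, with means of 9.01 to 9.07 and 8.63 to 8.85. Over 15 tested sperm genes, of 17 listed, 14 lay above control, 12 (80%) at such a p in either direction. Their means were 7.79 to 7.80 on the controls and 8.06 to 8.51 on the GYY4137 arrays. Most of these sperm probe sets can bind related transcripts, so the same signal may count more than once. Of 9 body wall muscle genes 8 lay below control (median -0.24, and -0.38 without GYY4137 replicate 3), and of 9 hypodermis genes 7 lay above it (0.23 and 0.20). Intestine, neuron and yolk genes had medians of 0.07, 0.11 and -0.07. Without GYY4137 replicate 3, 3 sperm genes were raised, and 4 muscle genes, 1 oocyte and 1 hypodermis gene were lowered. That fit raised 3.04% and lowered 1.69% of all tested probe sets. On GYY4137 replicate 3 the lowest value was reached by 11 of the 18 germline and 11 of the 17 oocyte genes, and the highest by 14 of the 15 sperm genes. Among all tested probe sets, 38.1% were lowest and 28.4% highest on that array. In whole worms, fewer cells of a type and less RNA per cell cannot be told apart.

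The genes for dsRNA uptake were the only role group whose tested members all lay above control, and there were just 2 of them. Both were above the floor on all 3 GYY4137 arrays and on fewer controls, so this direction was partly built into their selection. The gene sid-2 encodes a protein of the intestinal lumen needed to take up dsRNA from food. It read 3.73, 3.59 and 3.79 on the controls and 4.36, 4.38 and 4.08 on the GYY4137 arrays. The groups did not overlap, but every control value was under the floor, and the probe set was tested only because of the GYY4137 arrays, so a difference was built into its selection. The fitted difference was 0.57 ± 0.13 (SE, n = 3 per group) and did not pass (limma adjusted p = 0.0857). It passed without GYY4137 replicate 3, at 0.66 ± 0.11 (adjusted p = 0.0113). The probe set of sid-5, which encodes an endosomal protein of dsRNA transport, read 4.04, 3.80 and 3.97 on the controls and 4.40, 4.03 and 4.44 after GYY4137. It was above the floor on 1 control array and on all 3 GYY4137 arrays. Its groups overlapped and it did not pass (0.35 ± 0.15, adjusted p = 0.273). The dsRNA channel gene sid-1 and the kinase gene sid-3 stayed under the floor, at 2.75 to 3.55 and 2.92 to 3.27. Their control and GYY4137 means were 3.28 and 2.85 for sid-1, and 3.12 and 3.16 for sid-3.

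Dicer, its helicase relatives and dsRNA-binding partner, and other RDE proteins, among them RDE-10 and RDE-11 of the amplification step, were read on 9 tested probe sets, 1 per gene. One fell and 8 did not pass, and all 9 lay below control with a median of -0.30, or -0.15 without GYY4137 replicate 3. The called gene was rde-11, which encodes a zinc finger protein that acts with RDE-10. It read 4.58, 4.70 and 4.65 on the controls and 4.09, 3.81 and 3.71 on the GYY4137 arrays. All 3 GYY4137 values lay below all 3 controls, and 2 of them under the floor, so the size of the fall is uncertain. The 3 controls alone met the filter, with 1 GYY4137 array above the floor. A difference was thus partly built into the selection of rde-11. The fitted difference was -0.78 ± 0.13 (SE, n = 3 per group), a 1.71-fold lower signal (limma adjusted p = 0.0410). The call depended on the arrays used and on the fit. With all arrays it ended under the replicate block (adjusted p = 0.0824) and with no filter on low values (adjusted p = 0.104). It also ended without control replicate 1, 2 or 3, at -0.81, -0.75 and -0.77 (adjusted p = 0.175, 0.211 and 0.168), and without GYY4137 replicate 2, at -0.74 (adjusted p = 0.137). It held without GYY4137 replicate 1 or 3, at -0.89 and -0.70 (adjusted p = 0.0391 and 0.0131). Its probe set can bind related transcripts. The partner gene rde-10 read 4.24, 4.01 and 4.04 on the controls and 4.11, 4.00 and 3.28 after GYY4137, and did not pass (-0.30 ± 0.22, and -0.044 without GYY4137 replicate 3). Like rde-11, it was above the floor on 3 controls and 1 GYY4137 array.

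Dicer itself showed how far 1 array could carry a value. The probe set of dcr-1 read 5.65, 5.62 and 5.35 on the controls and 5.45, 5.32 and 3.60 on the GYY4137 arrays. Its difference of -0.75 ± 0.45 did not pass (limma adjusted p = 0.393) and was -0.15 ± 0.12 without GYY4137 replicate 3. That array stood at -1.79 relative to the mean of the other GYY4137 arrays, the widest gap among the tested members. The Dicer-related helicase gene drh-1, which acts in defence against viruses, read 5.92, 6.02 and 5.73 on the controls and 5.79, 5.70 and 5.10 after GYY4137 (-0.37 ± 0.20, adjusted p = 0.360, and -0.15 without the last array). Its neighbour and close relative drh-2 read 4.54, 4.59 and 4.67, then 4.41, 4.16 and 4.11. These groups did not overlap, yet drh-2 did not pass (-0.38 ± 0.12, adjusted p = 0.196). Both probe sets may also pick up related transcripts. The remaining genes of the group, drh-3, rde-4, rde-8 and rde-12, were between -0.25 and -0.11. Without GYY4137 replicate 3, rde-4 and rde-8 turned to 0.10 and 0.093, drh-3 was at -0.0016 and rde-12 at -0.38. The probe set of drh-3 read 6.39, 6.48 and 6.44 on the controls and 6.43, 6.44 and 6.10 after GYY4137.

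**Figure D2:**
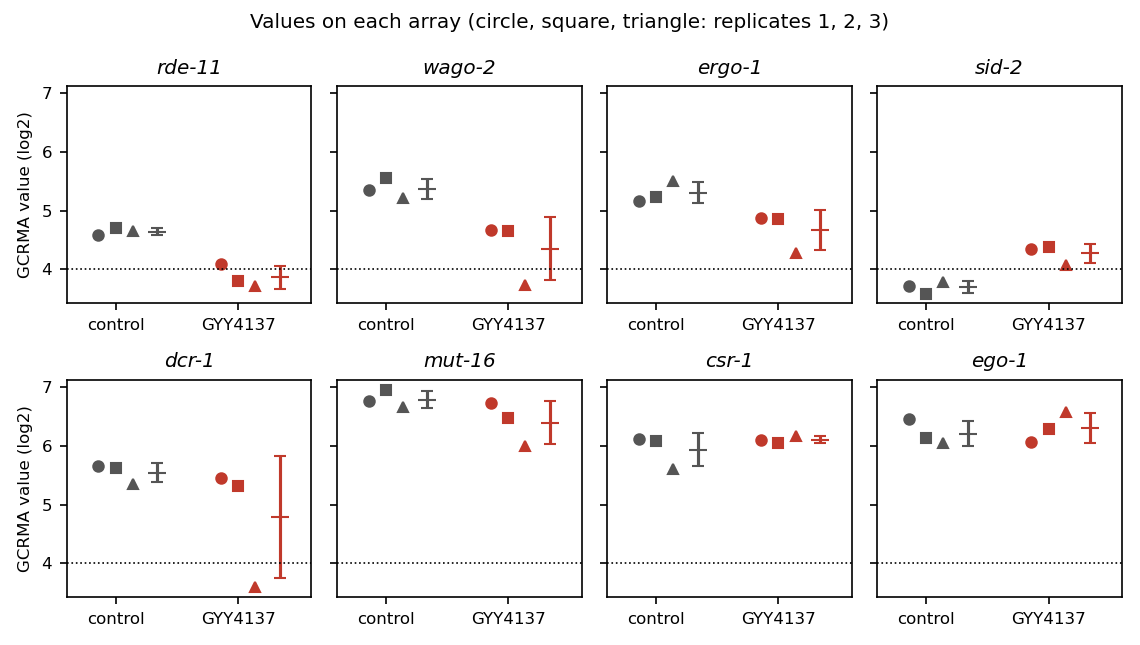
GCRMA values (log2) of 8 members on each array, control in grey and GYY4137 in red, with the mean ± SD (n = 3) beside the points and the floor of 4 as a dotted line. For rde-11, wago-2, ergo-1 and sid-2 the groups do not overlap. For dcr-1 and mut-16 the triangle, GYY4137 replicate 3, lies below the other 5 arrays, and for csr-1 and ego-1 it lies above them.

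Primary Argonautes, which take up the first small RNAs of each pathway, were read on 8 tested probe sets of 6 genes, and none passed. Of the 8, 7 lay below control, and the median was -0.56 (-0.24 without GYY4137 replicate 3). For 4 of the 8 the GYY4137 arrays all lay below the controls, against 15.6% of all tested probe sets. The gene ergo-1, whose protein carries endogenous small RNAs in oocytes and embryos, read 5.17, 5.24 and 5.50 on the controls and 4.87, 4.86 and 4.28 after GYY4137. The GYY4137 values were all lower, but the difference of -0.63 ± 0.19 did not pass (limma adjusted p = 0.167), nor did -0.44 ± 0.13 without GYY4137 replicate 3 (adjusted p = 0.0870). The Argonaute gene of the response to foreign dsRNA, rde-1, read 6.67, 6.77 and 6.85 on the controls and 6.62, 6.24 and 5.16 after GYY4137. These groups did not overlap either, and again the widest gap was on GYY4137 replicate 3 (-0.76 ± 0.34, adjusted p = 0.298, and -0.34 ± 0.13 without that array). Its second probe set gave -0.63 ± 0.30, and -0.26 without it. The germline microRNA Argonaute gene alg-5 read 6.37, 6.65 and 6.02 on the controls, then 5.95, 5.76 and 5.87, with no overlap. Here GYY4137 replicate 3 lay between the other GYY4137 arrays, and the difference was -0.48 ± 0.17 with all arrays (adjusted p = 0.223) and -0.49 ± 0.17 without that one. A second alg-5 probe set was at -0.48 ± 0.24, and at -0.22 without it.

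The paired Piwi genes differed on GYY4137 replicate 3. The piRNA Argonaute gene prg-1 read 7.12, 7.21 and 7.08 on the controls and 6.98, 6.96 and 7.20 after GYY4137, with overlap and a difference of -0.09 ± 0.11 (limma adjusted p = 0.665), or -0.17 without GYY4137 replicate 3. Its close relative prg-2 read 6.18, 5.99 and 6.53, then 5.97, 6.20 and 4.55. The last value lay far under all others, the first just under the lowest control, and the difference of -0.66 ± 0.41 (adjusted p = 0.402) was -0.15 ± 0.16 without it. The microRNA Argonaute gene alg-2 was at 0.11 ± 0.14, and at -0.014 without GYY4137 replicate 3. For alg-3 and alg-4, Argonautes of the male germline, the 4 probe sets had means of 2.68 to 3.89 and were not tested.

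RNA-dependent RNA polymerases were read on 3 tested probe sets, and none passed. The gene rrf-3, whose enzyme makes the endogenous small RNAs carried by ERGO-1, read 4.35, 4.35 and 4.33 on the controls and 4.07, 4.00 and 2.93 after GYY4137. The SD of the controls was 0.013, and all GYY4137 values were lower, 1 of them far under the floor. The controls alone met the filter, with 1 GYY4137 array above the floor, so a difference was partly built into its selection. The difference was -0.68 ± 0.29 (limma adjusted p = 0.281), and -0.31 ± 0.10 without GYY4137 replicate 3 (adjusted p = 0.135). The somatic enzyme's gene rrf-1 read 4.55, 4.48 and 4.43, then 4.37, 4.26 and 3.61, with no overlap (-0.41 ± 0.20, adjusted p = 0.332, and -0.17 without the last array). Its neighbour on the genome ego-1, which encodes the germline enzyme, read 6.45, 6.13 and 6.04 on the controls and 6.06, 6.28 and 6.57 after GYY4137. These groups overlapped (0.10 ± 0.17, adjusted p = 0.768), and the sign turned without GYY4137 replicate 3 (-0.04 ± 0.14). The rrf-2 probe set stayed under the floor, with a mean of 2.71.

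Mutator genes build the perinuclear sites where secondary small RNAs are made. None of their 7 tested probe sets passed, and 6 lay below control with a median of -0.29. For none were the groups apart, against 15.6% of all tested probe sets with GYY4137 below and 13.4% above. On GYY4137 replicate 3 all 7 had their lowest value, against 38.1% of all tested probe sets, and without that array their median was -0.08. The scaffold gene mut-16 read 6.76, 6.95 and 6.65 on the controls and 6.72, 6.48 and 5.99 after GYY4137 (-0.39 ± 0.20, limma adjusted p = 0.336, and -0.19 ± 0.13 without the last array). The nucleotidyltransferase gene rde-3, also called mut-2, read 6.36, 6.03 and 6.24, then 6.16, 6.02 and 4.95. Its first GYY4137 values lay within or just under the controls, and the difference of -0.50 ± 0.30 (adjusted p = 0.396) was -0.12 ± 0.13 without GYY4137 replicate 3. The gene rde-2, whose protein binds the exonuclease MUT-7, read 5.49, 5.44 and 5.43, then 5.46, 5.36 and 4.65 on 1 probe set (-0.29 ± 0.21, adjusted p = 0.455, and -0.042 without the last array). Its second probe set was at -0.59 ± 0.35, and at -0.15 without that array. The exonuclease gene mut-7 itself (0.02 ± 0.11), the helicase gene mut-14 (-0.12 ± 0.13) and mut-15 (-0.17 ± 0.16) were nearer to 0, and without that array at 0.081, -0.080 and -0.041.

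**Figure D3:**
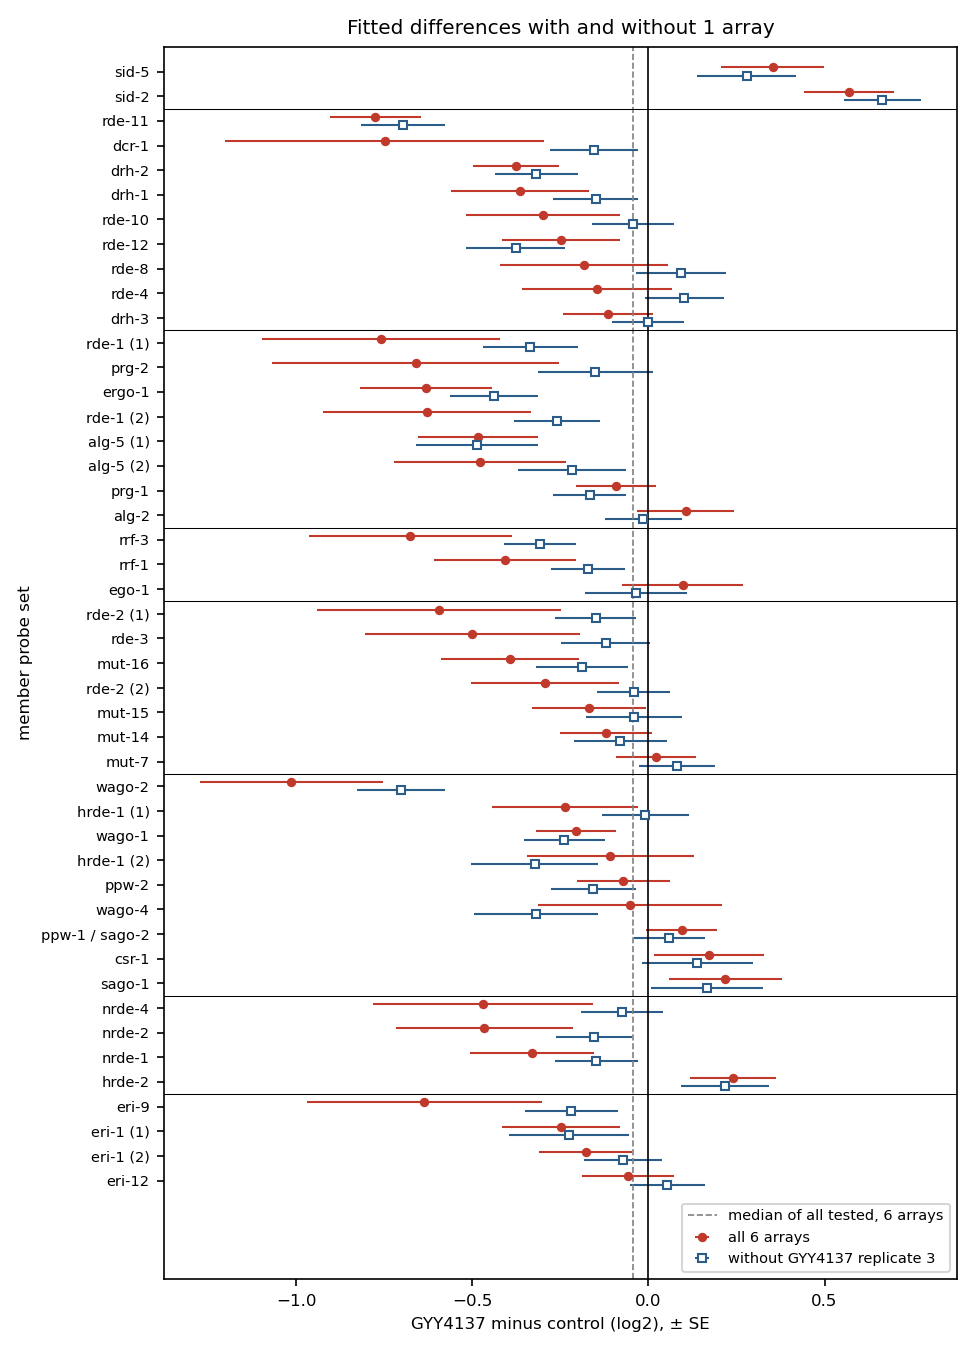
Fitted log2 difference, GYY4137 minus control, with its SE for each tested member probe set, from all 6 arrays (red circles) and without GYY4137 replicate 3 (open blue squares). The dashed line is the median over all tested probe sets, -0.04. For rde-11, alg-5 (1) and hrde-2 both points lie close together, while for dcr-1 and prg-2 the estimate without the array moves to -0.15.

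CSR-1 and the secondary Argonautes gave 9 tested probe sets, none of which passed. Their median was -0.07 (-0.16 without GYY4137 replicate 3), with 6 below and 3 above control. The secondary Argonaute gene wago-2 had the lowest difference of all tested members. It read 5.35, 5.55 and 5.21 on the controls and 4.68, 4.65 and 3.73 on the GYY4137 arrays, with no overlap. The difference of -1.01 ± 0.26 was a 2.02-fold lower signal that did not pass (limma adjusted p = 0.121), with an SD of 0.17 over the controls and 0.54 over the GYY4137 arrays. Without that array it passed at -0.70 ± 0.12 (adjusted p = 0.0153). The germline gene wago-1 read 8.08, 7.95 and 8.07, then 7.68, 7.91 and 7.89, a narrow separation that did not pass (-0.21 ± 0.11, adjusted p = 0.370). The probe set shared by ppw-1 and sago-2 lay higher on all GYY4137 arrays by little (0.09 ± 0.10, from 8.01 ± 0.02 to 8.10 ± 0.06, SD, and 0.060 without GYY4137 replicate 3).

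The Argonaute gene csr-1, which protects germline transcripts and is needed for chromosome segregation, read 6.11, 6.08 and 5.61 on the controls and 6.09, 6.05 and 6.18 after GYY4137 (0.17 ± 0.16, limma adjusted p = 0.550). The GYY4137 values lay close to the higher controls. The gene hrde-1, whose nuclear Argonaute carries silencing across generations, gave unlike readings on its tested probe sets. One read 6.70, 6.73 and 6.52, then 6.76, 6.52 and 5.96, and the other 5.58, 6.20 and 5.69, then 5.60, 5.39 and 6.14. GYY4137 replicate 3 was the lowest array on the first and the highest GYY4137 array on the second, and neither passed (-0.24 ± 0.21 and -0.11 ± 0.24, or -0.0086 and -0.32 without that array). The somatic Argonaute gene sago-1 was at 0.22 ± 0.16 (adjusted p = 0.465), wago-4 at -0.05 ± 0.26 and ppw-2 at -0.07 ± 0.13. Without GYY4137 replicate 3, wago-4 was at -0.32 and ppw-2 at -0.16. The sign of wago-4 turned under quantile normalization (0.015) and median centring (0.021), and that of ppw-2 under median centring (0.00074).

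Nuclear RNAi genes, whose proteins stop transcription at targets of small RNAs, gave 4 tested probe sets and no calls. The gene nrde-2 read 5.33, 5.29 and 5.42 on the controls and 5.26, 5.13 and 4.26 after GYY4137 (-0.47 ± 0.25, limma adjusted p = 0.360). All 3 GYY4137 values lay below the controls, but only that of GYY4137 replicate 3 was far from them. The difference without that array was -0.16 ± 0.11. The gene nrde-1 read 4.83, 4.70 and 4.55, then 4.57, 4.52 and 4.00 (-0.33 ± 0.18), and nrde-4 was at -0.47 ± 0.31. Without GYY4137 replicate 3 these were -0.15 and -0.075. The gene hrde-2, which neighbours mut-15 on the genome, went the other way: 6.42, 6.16 and 6.30 on the controls and 6.40, 6.62 and 6.58 after GYY4137. Its groups overlapped and it did not pass (0.24 ± 0.12, adjusted p = 0.338). Among the ERI genes, named because their loss enhances RNAi, 4 probe sets of 3 genes were tested and none passed. The gene eri-9 read 6.10, 6.44 and 6.07, then 6.001, 5.97 and 4.73, with no overlap (-0.64 ± 0.33, adjusted p = 0.350, and -0.22 ± 0.13 without the last array). The exonuclease gene eri-1 read 5.23, 5.24 and 5.72, then 5.34, 5.02 and 5.11 (-0.25 ± 0.17). A second eri-1 probe set was at -0.18 ± 0.13, and at -0.071 without GYY4137 replicate 3. The gene eri-12 was at -0.06 ± 0.13, and its sign turned without GYY4137 replicate 3 (0.054), under quantile normalization (0.0073), under median centring (0.015) and with array weights (0.068).

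The role groups differed in where they stood on GYY4137 replicate 3. Relative to the mean of the other GYY4137 arrays, its median shift was -0.65 over the Dicer group, -0.68 over primary Argonautes, -0.71 over RNA-dependent RNA polymerases, -0.61 over mutator genes, -0.74 over nuclear RNAi genes and -0.33 over ERI genes. Over all tested probe sets it was -0.03, and over CSR-1 and the secondary Argonautes 0.10. The 2 dsRNA uptake genes lay on either side of 0, sid-2 at -0.28 and sid-5 at 0.22. Among CSR-1 and the secondary Argonautes 2 of 9 members were lowest on that array and 4 were highest, among them wago-4 (0.80 above) and csr-1. In the Dicer group 8 of 9 were lowest. Among all tested probe sets, 38.1% were lowest and 28.4% highest on that array. The groups were not tested against each other on this array, since it is 1 sample.

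**Figure D4:**
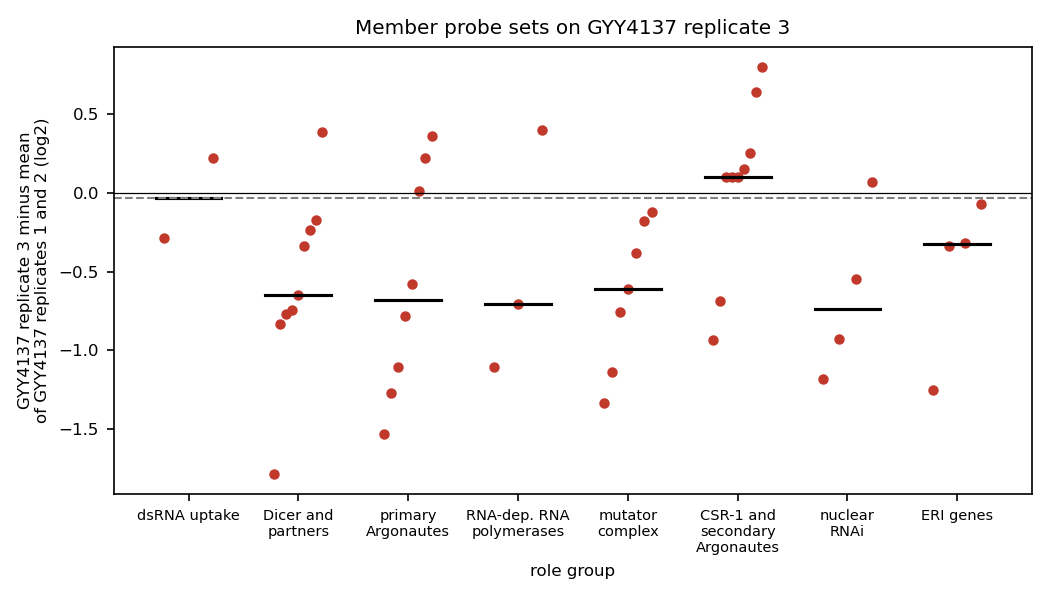
GYY4137 replicate 3 minus the mean of GYY4137 replicates 1 and 2 (log2), 1 point per tested member probe set, grouped by role, with black bars at each group's median. The dashed line is the median over all tested probe sets, -0.03. The medians of 6 groups lie well below it, with dcr-1 the lowest point at -1.79, while the median of CSR-1 and the secondary Argonautes is 0.10. The 2 dsRNA uptake points lie on either side of the dashed line.

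Of 92 other genes of small RNA pathways, 64 were tested, and 0 passed by limma, where 6 had an unadjusted p under 0.05 (9.38%, against 17.7% of all tested probe sets). Of the 64, 51 lay below control, with a median of -0.18 (-0.06 without GYY4137 replicate 3), and 41 were lowest on that array. Among all tested probe sets, 57.1% lay below control and 38.1% were lowest on that array. The 12 tested genes of small RNA amplification had a median of -0.34 (-0.24 without GYY4137 replicate 3), with 11 below control. Among them rsd-6, needed for RNAi in the germline, read 4.78, 4.91 and 4.82 on the controls and 4.50, 4.49 and 4.24 after GYY4137 (-0.43 ± 0.12, limma adjusted p = 0.145). The helicase gene smut-1, a relative of mut-14, was at -0.51 ± 0.20 (adjusted p = 0.261), and at -0.27 without GYY4137 replicate 3. Neither gene's groups overlapped.

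The 14 tested genes of silencing chromatin all lay below control (median -0.27, and -0.09 without GYY4137 replicate 3), with the histone methyltransferase genes mes-4 and mes-2 at -0.25 ± 0.12 and -0.33 ± 0.17 (-0.30 and -0.14 without that array). The 10 tested piRNA biogenesis genes were split, 5 below and 5 above, with a median of -0.01, or 0.07 without it. Among these, snpc-4, a factor of piRNA transcription, was at -0.45 ± 0.26, and pid-3 at 0.35 ± 0.22, which were -0.12 and 0.088 without it. The 12 tested genes of microRNA processing had a median of -0.04, with paxt-1, a partner of the exonuclease XRN-2, at -0.65 ± 0.19 (limma adjusted p = 0.167) and lin-41 at -0.22 ± 0.10. Of 16 tested genes of dsRNA editing, RNAi spread and RNA surveillance, 14 lay below control (median -0.13, and -0.0074 without GYY4137 replicate 3), with smg-1 at -0.54 ± 0.22, and at -0.34 without that array. The Argonaute gene vsra-1 stood on the other side. It read 5.54, 5.30 and 5.42 on the controls and 6.001, 5.92 and 5.52 after GYY4137 (0.39 ± 0.15, adjusted p = 0.261). It passed without GYY4137 replicate 3, at 0.54 (adjusted p = 0.0289), and was then the 1 gene of these lists that did.

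Without GYY4137 replicate 3, 3 member probe sets passed: rde-11 and wago-2 were lowered and sid-2 was raised. Over all tested probe sets that fit lowered 1.69% and raised 3.04%. When each array was weighted by how well it followed its group, 7 members were lowered and 1 raised, where 8.48% of all tested probe sets were lowered and 8.77% raised. The lowered ones were rde-11 (-0.78), wago-2 (-0.73), alg-5 (-0.57), both rde-1 probe sets (-0.46 and -0.40), ergo-1 (-0.40) and drh-2 (-0.38), and the raised one was sid-2 (0.66). The weights of replicates 1, 2 and 3 were 2.42, 0.92 and 0.77 for control and 0.84, 4.82 and 0.14 for GYY4137. These calls thus rest mostly on GYY4137 replicate 2 and control replicate 1. In both fits the tested probe sets came from the same filter. A difference was therefore still built into the selection of sid-2, and partly into that of rde-11.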

How the data were processed

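RNA from 3 control and 3 GYY4137 samples was measured on Affymetrix arrays. The authors' deposited values were made with GCRMA, per the submitters' processing notes, and were taken as log2 values, since they span 1.88 to 13.3. No source used here gives the GCRMA version or says whether probe sets were filtered. Genes were named from the platform annotation, and all 77 members' gene numbers were found in the RefSeq table of assembly WBcel235, from which just names and neighbours were taken. Probe sets whose name ends in _s_at or _x_at may pick up related transcripts.

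Non-control probe sets above 4 on 3 or more of 6 arrays (8053) were compared in limma 3.58.1 (R 4.3.3; linear fit with moderated variances, two-sided, Benjamini-Hochberg adjusted p under 0.05 over all of them). The ± beside a difference is its standard error with 3 arrays per group. The procedure was tested on simulated data with the same spread on every array. That simulation did not cover an array that stands apart, as GYY4137 replicate 3 did. The p-values reflect the spread among these samples alone, which could be technical.

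Members, role groups and gene lists were chosen with earlier results of these data known. Named with differences were called members, the 3 genes per role with the smallest p, and dcr-1, rde-1, alg-1, prg-1, csr-1, hrde-1, ego-1, rrf-3, sid-1 and mut-16. From each pathway list the 2 genes with the smallest p were named. Other members with values were chosen after their values were seen. Of several probe sets of a gene, that with the highest mean stood for it.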

Additional observations from a re-analysis of the deposited data

How the results depend on the processing

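Precision is limited by having 3 arrays per group, and values under the floor of 4 give no firm level. The count of lowered member probe sets, 1, was 0 with no filter, a floor of 6 or the replicate block, and 7 with array weights; over single arrays left out it ran from 0 to 2. The count of raised members, 0, was 1 under quantile normalization, median centring, array weights or a threshold of 0.1, and 0 to 1 with single arrays left out. By gene, the count of 1 was 0 with no filter, a floor of 6 or the replicate block, 2 under quantile normalization, median centring or a threshold of 0.1, 7 with array weights, and 0 to 3 with single arrays left out. The count of listed pathway genes, 0 of 64, was 7 with array weights and 0 to 1 with single arrays left out. Array weights raised 8.77% and lowered 8.48% of all tested probe sets. With a floor of 6, rde-11 was not among the 3722 probe sets tested. With no filter it was adjusted over 22548 probe sets, and its SE was 0.11 rather than 0.13. The parts of these changes in the lost call were not separated. The members' median stayed negative in every alternative, from -0.40 to -0.11. Of the 46 tested member probe sets and the 10 pathway genes named, 10 turned sign under some alternative. With array weights, alg-2 (-0.044), drh-3 (0.0067), ego-1 (-0.045), eri-12 (0.068) and rde-4 (0.060) turned. Under quantile normalization eri-12 (0.0073) and wago-4 (0.015) turned, and under median centring eri-12 (0.015), wago-4 (0.021) and ppw-2 (0.00074). With single arrays left out the differences ran from -0.014 to 0.19 for alg-2, -0.036 to 0.22 for ego-1, -0.15 to 0.054 for eri-12, -0.32 to 0.081 for the second hrde-1 probe set, -0.051 to 0.081 for mut-7, -0.16 to 0.029 for ppw-2, -0.29 to 0.10 for rde-4, -0.39 to 0.093 for rde-8 and -0.32 to 0.14 for wago-4; the cause was not tested. Replicate numbers are shared by the groups, but the deviations of same-numbered samples correlated at 0.11, -0.02 and 0.05, so the block was not used; with it rde-11 was at -0.78 (limma adjusted p = 0.0824).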
